A study of Mus musculus with 3 samples.

Results

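The genes described here make, move and use itaconate and the metabolites it is made from. They are the 9 genes Acod1, Slc13a3, Slc25a1, Slc25a10, Slc25a11, Clybl, Acly, Idh1 and Cs, chosen by name from 55536 annotated genes, and all 9 were matched by symbol. Their transcripts were measured by total RNA sequencing, after depletion of ribosomal RNA, in the cytosol of macrophages grown from the bone marrow of C57BL/6J mice. Each of the 3 libraries came from cells given 100 ng/ml Lipid A for 12 h, kept without it for 12 h and given 100 ng/ml again for 20 min. Lipid A is the membrane anchor of lipopolysaccharide and the ligand through which bacteria trigger TLR4. Genotype is given only as the strain, and the labels give no age. The libraries are labelled as biological replicates 1, 2 and 3 and share a single donor identifier, so the spread between them may be partly technical. They form 1 group, and no untreated, singly treated or nuclear library was analysed here. Every value is therefore a level after the second dose, and none is a response to it. An exact sign-flip test over 3 libraries cannot go below p = 0.25, so differences are given per library and as mean ± SD with no test.

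Citrate is made in mitochondria from acetyl-CoA and oxaloacetate by citrate synthase, and is then converted through cis-aconitate to isocitrate. In activated macrophages the enzyme encoded by Acod1 removes a carboxyl group from cis-aconitate and so makes itaconate, which inhibits succinate dehydrogenase. Carriers of the inner mitochondrial membrane exchange citrate, malate, 2-oxoglutarate and other dicarboxylates between the matrix and the cytosol, where citrate is cleaved to acetyl-CoA or, as isocitrate, oxidised for NADPH. Itaconate is broken down in mitochondria through its CoA ester, and the last step of that route is the citramalyl-CoA lyase encoded by Clybl.

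Expected counts on annotated genes totalled 32055937, 43616634 and 47864978 in replicates 1, 2 and 3. Levels are TPM, the length-normalised share of all transcripts, which divide by transcript length and can be compared between genes. The short 7SL RNAs held 59.3%, 62.9% and 55.5% of TPM, so all other genes have low TPM for their share of reads. The cells carried the markers of macrophages, with 8 of 8 at 1 TPM or more in every library and a summed level of 4587 to 5345 TPM. Of 9 neutrophil markers 3 reached that level, the list summed to 10.6 to 18.9 TPM, and the defining markers Ly6g and Retnlg had 0 counts in all libraries. Dendritic cell, T and NK cell, fibroblast and endothelial lists had no marker at 1 TPM and each summed to at most 1.14 TPM. Of 4 B-cell markers only Cd79b reached it, at 1.06, 1.51 and 2.52 TPM. In bulk RNA, fewer cells expressing a gene and less of its RNA per cell cannot be told apart.

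All 9 genes were present, and 1 of them stood far above the rest. Acod1 averaged 287 ± 169 TPM, the other 7 well-expressed genes averaged 21.7 to 44.9 TPM, and Clybl averaged 1.61 ± 0.125 TPM (SD, n = 3). All 9 reached 1 TPM in every library, against 17.2% of the 55536 annotated genes and 41.3% of the 22028 protein-coding genes. The 9 were chosen with earlier results of these data known, so this comparison is a description and not an independent result. The median of the 9 mean levels was 31.4 TPM, beside 8.48 TPM over the 9092 coding genes at 1 TPM or more in every library. By mean TPM Acod1 ranked 99 among the coding genes, Slc25a10 ranked 1044 and Clybl ranked 8657.

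**Figure D1:**
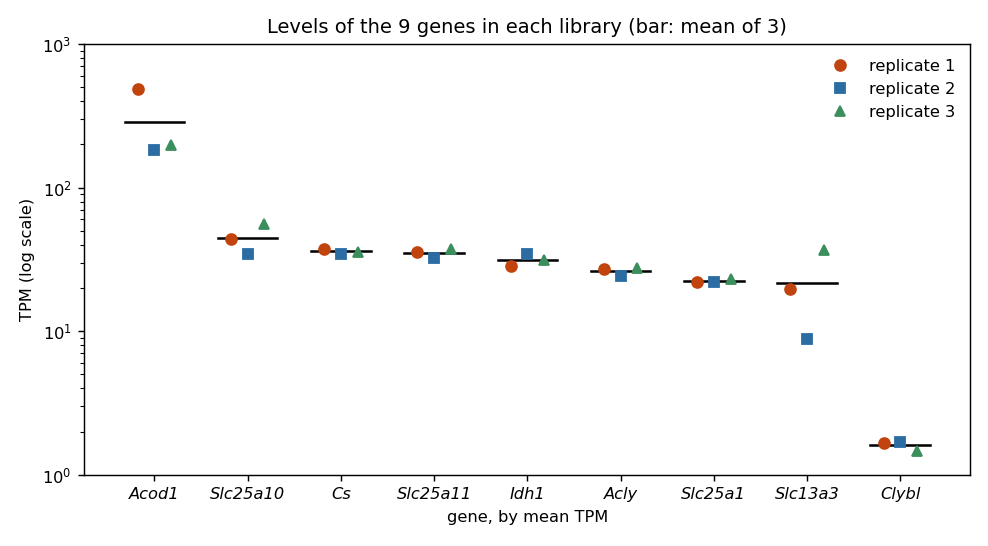
TPM of each gene (log scale) in replicates 1, 2 and 3, with a bar at the mean of the 3 libraries and genes ordered by mean. Acod1 lies above every other gene in all 3 libraries and Clybl below every other gene, while the middle 7 lie between 8.86 and 55.82 TPM.

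Synthesis rests on Acod1, cis-aconitate decarboxylase (ENSMUSG00000022126.6, chr14:103046977-103056573, plus strand, mm10). It is an immune-response gene of macrophages, with 5 exons and a single annotated transcript. It stood at 482.07 TPM in replicate 1, 181.85 TPM in replicate 2 and 197.91 TPM in replicate 3. The expected counts behind these levels were 57686, 35004 and 39509. Replicate 1 stood apart from replicates 2 and 3, which lay close to each other, and without replicate 1 the mean was 189.9 TPM. Exact Poisson 95% intervals, which cover counting error only, were 478 to 486 TPM, 179.9 to 184 TPM and 196 to 199.9 TPM, so the gap lay far outside counting error.

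Acod1 was the 1 gene of the 9 with a TATA box in its promoter window. The windows are the 250 bases before each RefSeq start (build GRCm38.p6), searched on both strands. Those of Acod1 and Slc13a3 are printed because these are the genes whose levels differed most between libraries. Acod1 lies at chr14:103046762-103047011 (plus strand) and Slc13a3 at chr2:165473198-165473447 (minus strand). Capitals mark matches on either strand to 4 general promoter motifs, namely the TATA box, the GC box, the CCAAT box and the E-box.

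Acod1 promoter: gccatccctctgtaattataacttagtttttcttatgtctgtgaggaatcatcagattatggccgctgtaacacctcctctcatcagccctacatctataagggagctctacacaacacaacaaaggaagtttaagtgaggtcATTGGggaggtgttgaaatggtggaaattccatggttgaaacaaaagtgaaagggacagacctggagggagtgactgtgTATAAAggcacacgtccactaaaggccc
Slc13a3 promoter: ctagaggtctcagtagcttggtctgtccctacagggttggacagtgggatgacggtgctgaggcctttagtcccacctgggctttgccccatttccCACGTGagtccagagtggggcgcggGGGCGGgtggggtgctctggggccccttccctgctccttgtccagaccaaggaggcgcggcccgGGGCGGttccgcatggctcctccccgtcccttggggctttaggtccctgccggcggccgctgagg

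The Acod1 window held TATAAA from 28 to 23 bases before the RefSeq start and CCAAT on the opposite strand from 107 to 103 bases before it, and no GC box. The Slc13a3 window held GC boxes from 129 to 124 and from 65 to 60 bases before the start, an E-box from 154 to 149 bases before it and no TATA box. The TATA box letters TATAAA occurred in 12.4% of the 32851 RefSeq windows and in 1 of the 9 genes, while the GC box letters GGGCGG occurred in 32.7% of windows and in 7 of the 9 genes. CCAAT occurred in 33.8% of windows and in 6 of the genes, the E-box letters CACGTG in 6.02% and in Slc13a3 and Slc25a1, and the AP-1 letters TGANTCA in 6.75% and in Slc25a11. The NF-kB consensus, searched by its name, occurred in 7.25% of windows and in those of Slc25a1 and Slc25a10, and the interferon element GAAANNGAAA in 2.98% of windows and in 0 of the 9. No matches within a window overlapped, except that the E-box and AP-1 letters read the same on both strands. GC content was 44.4% in the Acod1 window and 67.6% in the Slc13a3 window, beside a median of 52.4% over all windows. All 9 genes matched, with 10 windows because Idh1 has 2. RefSeq starts are not always the starts of the GENCODE genes whose coordinates are given here. The Acod1 and Slc13a3 windows partly overlap those genes, and the TATA box of Acod1 lies within the GENCODE gene. The Slc25a11 window and 1 of the 2 Idh1 windows lie wholly within theirs. A match is a description of letters and not evidence of binding.

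Among the 4 transporters, levels lay within a few-fold of one another and below Acod1 in every library. Slc25a10, the mitochondrial dicarboxylate carrier that exchanges malate and succinate for phosphate (ENSMUSG00000025792.9, chr11:120491840-120499187, plus strand), had 44.03, 34.7 and 55.82 TPM in replicates 1, 2 and 3. Slc25a11, the 2-oxoglutarate and malate carrier (ENSMUSG00000014606.14, chr11:70644196-70647479, minus strand), had 35.65, 32.26 and 37.18 TPM. These 2 carriers were the higher pair of transporters. Slc25a1, the citrate carrier that exports mitochondrial citrate (ENSMUSG00000003528.15, chr16:17925223-17928219, minus strand), had 21.89, 22.04 and 22.94 TPM. In TPM it was the transporter with the smallest spread between libraries, an SD of 0.568 TPM around a mean of 22.3 TPM. That ranking depends on the scale. With counts scaled to TMM library sizes, the highest library over the lowest was 1.15 for Slc25a1 and 1.10 for Slc25a11. Per library, Slc25a10 stood at 2.01, 1.57 and 2.43 times the TPM of Slc25a1.

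Slc13a3, a sodium-coupled dicarboxylate transporter of the plasma membrane (ENSMUSG00000018459.15, chr2:165405028-165473230, minus strand), is best known from kidney and can carry itaconate into cells. It had 19.54, 8.86 and 36.56 TPM, from 3200, 2330 and 9988 expected counts. Replicate 2 was the lowest and replicate 3 the highest, with replicate 1 near the mean of 21.7 ± 14.0 TPM (SD, n = 3), and without replicate 3 the mean was 14.2 TPM. A list of 4 hepatocyte and kidney tubule markers summed to 0, 0.04 and 0 TPM, so markers of the other tissues known for this transporter were at or near 0. Acod1 had 24.7, 20.5 and 5.41 times the TPM of Slc13a3 in replicates 1, 2 and 3.

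The 3 enzymes of citrate formation and use had close levels. Cs and Acly varied little between libraries (SD 1.49 and 1.63 TPM), and Idh1 varied more (SD 2.97 TPM). Cs, citrate synthase (ENSMUSG00000005683.8, chr10:128337734-128362479, plus strand), had 37.44, 34.49 and 35.66 TPM. Idh1, the cytosolic isocitrate dehydrogenase that makes NADPH (ENSMUSG00000025950.16, chr1:65158616-65186500, minus strand), had 28.45, 34.38 and 31.38 TPM. Acly, ATP citrate lyase, which cleaves cytosolic citrate to acetyl-CoA and oxaloacetate (ENSMUSG00000020917.17, chr11:100476353-100528000, minus strand), had 26.89, 24.37 and 27.41 TPM. Cs therefore stood at 1.39, 1.42 and 1.30 times the TPM of Acly, higher in 3 of 3 libraries. Acly in turn stood at 1.23, 1.11 and 1.19 times the TPM of the citrate exporter Slc25a1, also in 3 of 3.

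Degradation is represented among the 9 genes by Clybl alone, citramalyl-CoA lyase (ENSMUSG00000025545.10, chr14:122181704-122402234, plus strand), which lies on the same chromosome as Acod1. It had 1.67, 1.70 and 1.47 TPM, and its 3 libraries overlapped within their counting intervals of 1.33 to 2.07, 1.43 to 2.01 and 1.22 to 1.75 TPM. The expected counts were 84, 137 and 123, the lowest among the 9 genes, so differences between libraries were not detectable at this depth. Acod1 had 289, 107 and 135 times the TPM of Clybl in replicates 1, 2 and 3.

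Set against each other by role, synthesis (Acod1) stood above transport, the citrate enzymes and degradation (Clybl alone) in every library. Roles were compared as differences of log2(TPM + 1), taking the median gene of the 4 transporters and of the 3 citrate enzymes. Synthesis minus transport was 4.06, 2.72 and 2.39 (3.06 ± 0.88, SD, n = 3), positive in 3 of 3 libraries. Synthesis minus citrate enzymes was 4.04, 2.37 and 2.62 (3.01 ± 0.90). Both differences were larger than the spread between libraries and largest in replicate 1, where Acod1 was highest. Synthesis minus degradation was 7.50, 6.08 and 6.33 (6.64 ± 0.76), which adding 1 TPM makes smaller than the ratios given above. Citrate enzymes minus transport was 0.02, 0.35 and -0.23, a mean of 0.05 ± 0.29, so these 2 roles did not differ beyond their spread. In TPM, the median citrate enzyme had 28.4, 34.4 and 31.4 TPM, against 28.8, 27.1 and 36.9 TPM for the median transporter.

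In order of mean level the genes ran Acod1, Slc25a10, Cs, Slc25a11, Idh1, Acly, Slc25a1, Slc13a3 and Clybl. Neighbours were taken to differ where the sign was the same in 3 of 3 libraries and the mean log2 difference was at least its SD. Acod1 exceeded Slc25a10 by 2.53 ± 0.82. Idh1 exceeded Acly by 0.25 ± 0.21, Acly exceeded Slc25a1 by 0.22 ± 0.08 and Slc13a3 exceeded Clybl by 2.91 ± 1.03 on this scale. Slc25a10 and Cs (0.29 ± 0.32), Cs and Slc25a11 (0.03 ± 0.08), Slc25a11 and Idh1 (0.15 ± 0.21), and Slc25a1 and Slc13a3 (0.24 ± 0.94) did not differ beyond their spread.

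The genes also differed in how far the libraries lay apart, and only Acod1 and Slc13a3 passed 2-fold. Counts were scaled to TMM library sizes for this, and the highest library was divided by the lowest. That ratio was 3.92 for Slc13a3 and 2.35 for Acod1, and 1.04 (Cs) to 1.53 (Slc25a10) for the other 7. A ratio of 2 or more was thus seen for 2 of the 9, against 9.46% of the 12372 genes kept by a filter on low counts and 3.49% of the 4209 kept genes with a mean of at least 10 TPM. Of the 9, only Clybl, with a mean of 1.61 TPM, falls outside that 10 TPM set. The median ratio was 1.22 over the 9 genes, 1.26 over all kept genes and 1.21 over those with at least 10 TPM. The call for Acod1 rests on a single library, since its ratio was 1.03 without replicate 1. That of Slc13a3 was 3.92, 2.01 and 1.95 without replicates 1, 2 and 3, the last just under the threshold. Removing replicate 1 or replicate 3 thus left 1 gene of 9 past 2-fold. Over all kept genes the share past 2-fold was 4.42% without replicate 1 and 5.45% without replicate 3.

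**Figure D2:**
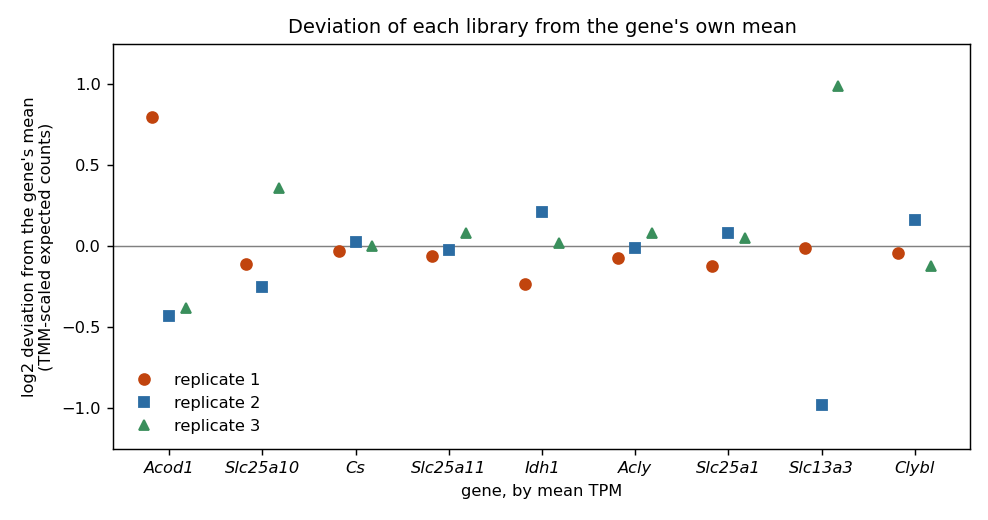
Deviation of each library from the gene's own mean, in log2 units of TMM-scaled expected counts, for the 9 genes ordered by mean TPM. Acod1 is high in replicate 1 (0.80) and low in the other libraries, Slc13a3 is high in replicate 3 (0.99) and low in replicate 2 (-0.98), and the remaining genes lie between -0.25 and 0.36.

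The 2 variable genes did not follow the same libraries. Acod1 deviated by 0.80, -0.43 and -0.38 log2 units in replicates 1, 2 and 3, and Slc13a3 by -0.01, -0.98 and 0.99. By Euclidean distance between such deviations, Slc13a3 ranked 4182 in closeness to Acod1 among the 4209 genes, where the first rank is the closest. The 5 closest were the chemokine gene Ccl7 (distance 0.0541), Tnip3 (0.0725), an inhibitor of NF-kB signalling, the chemokine gene Ccl4 (0.111), the cytokine gene Il1b (0.129) and the nucleoside transporter gene Slc28a2 (0.143). Ccl7 had 247.11, 91.16 and 95.18 TPM and Il1b had 24.48, 8.39 and 8.73 TPM. These distances rest on 3 libraries from 1 group, so they describe which genes were high in replicate 1 and say nothing of shared control. Of the 5, 4 were again among the closest with TPM as deposited, and 2 when genes with a mean of at least 1 TPM were admitted.

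The same measure for Slc13a3, applied after its values were seen, led to small nuclear RNAs among genes with a mean of at least 10 TPM. Its 5 closest genes were all annotated as snRNA, the first Gm22513 at a distance of 0.210 with 698.92, 359.23 and 1410.46 TPM, and the other 4 were 2 pairs of genes with identical values, so their reads could not be told apart. With TPM as deposited the second closest was Neat1, a nuclear long non-coding RNA, at 24.82, 12.66 and 52.42 TPM. Neat1 and the nuclear RNA Malat1 (612.38, 156.12 and 637.41 TPM) were lowest in replicate 2 and highest in replicate 3, as Slc13a3 was. Xist, another nuclear RNA, had 13.42, 0.66 and 3.42 TPM and was highest in replicate 1 and lowest in replicate 2. Its highest library was 21.3 times its lowest in TMM-scaled counts, against 4.98 for Malat1 and 3.77 for Neat1. Why Xist spread so widely was not tested. The libraries are of the cytosolic fraction, and the part of nuclear RNA in the spread of Slc13a3 was not tested. With a floor of 1 TPM the protein-coding genes Egr1 (0.279; 5.97, 3.33 and 14.99 TPM) and Tarm1 (0.329) came next behind Gm22513. Of the 5 closest, 1 was kept with TPM as deposited, 3 with the floor of 1 TPM and 0 among coding genes alone, so the ranking depends on these settings. Among protein-coding genes with a mean of at least 10 TPM the closest were Tspan3 (distance 0.404; 65.55, 37.02 and 102.91 TPM), Serpina3g (0.497) and the scavenger receptor gene Marco (0.499), all farther than the nearest snRNA. Of the 9 genes, Slc25a10 was the nearest to Slc13a3, at rank 68 of 4209, with its lowest library also replicate 2 and its highest replicate 3.

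Other genes of the pathway were read from lists of companions, by the same 2-fold measure and beside the same 9.46% of kept genes. Counts at 1 TPM in every library stand beside 41.3% of the 22028 protein-coding genes. These lists, too, were chosen with earlier results of these data known. Inflammatory genes varied widely, with 10 of 12 past 2-fold, a median ratio of 3.03 and replicate 1 highest for all 12. The highest 3 were the chemokine genes Ccl5 (4482 ± 1408 TPM), Cxcl10 (419 ± 383 TPM) and Ccl3 (212 ± 103 TPM), and the lowest was Il6 (0.647 ± 0.626 TPM). Cxcl10 had 860.97, 178.88 and 217.62 TPM, so replicate 1 stood apart as it did for Acod1. Without replicate 1 the count was 1 of 12 and the median ratio 1.20, against 4.42% and a median of 1.14 over all kept genes. Why replicate 1 was higher was not tested.

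**Figure D3:**
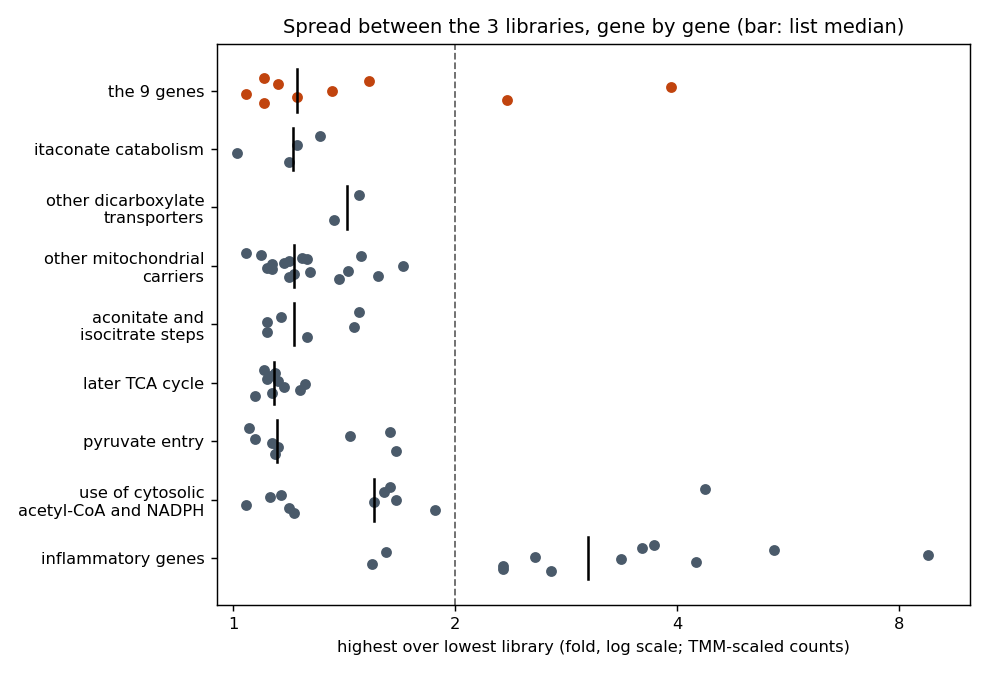
Ratio of the highest to the lowest library for every gene kept by the filter on low counts (log scale, TMM-scaled counts), by list, with a bar at the list median and a dashed line at 2-fold. Inflammatory genes lie mostly beyond the line, at a median of 3.03, and 2 of the 9 genes lie beyond it, while the mitochondrial lists lie below it.

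Genes of the mitochondrial steps around citrate were steadier than the inflammatory genes, with spreads near those of other genes. The median ratio was 1.26 over all kept genes and 1.21 over those with at least 10 TPM. Beside 9.46% of kept genes past 2-fold, a count of 0 in lists this short is not particular to these steps. Of the 6 genes listed for the aconitate and isocitrate steps, all reached 1 TPM, 0 passed 2-fold and the median ratio was 1.21. Among the subunits of the NAD-dependent isocitrate dehydrogenase, Idh3b had 30.3 ± 2.54 TPM and Idh3g 15.7 ± 2.62 TPM, with Idh3a lowest of the list (6.04 ± 0.461 TPM). Later steps of the cycle had 10 of 10 genes at 1 TPM, 0 past 2-fold and a median ratio of 1.14. They were led by the succinate dehydrogenase subunit Sdhb (74.8 ± 2.17 TPM), malate dehydrogenase Mdh2 (54.9 ± 4.46 TPM) and Sdhd (47.0 ± 1.71 TPM), with fumarase Fh1 lowest (5.88 ± 0.992 TPM).

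Pyruvate entry had 7 of 9 genes at 1 TPM and 0 of 8 kept genes past 2-fold. The pyruvate dehydrogenase genes Pdha1 (16.3 ± 1.54 TPM), Pdhb (16.2 ± 0.838 TPM) and Dlat (7.29 ± 0.550 TPM) were highest, and the kinase gene Pdk4, which restrains that complex, had 0 TPM in all libraries. Of 18 other mitochondrial carriers 16 reached 1 TPM and 0 of 17 kept passed 2-fold. The ADP/ATP carrier Slc25a5 (163 ± 12.5 TPM), the phosphate carrier Slc25a3 (94.8 ± 6.75 TPM) and the pyruvate carrier subunit Mpc1 (47.1 ± 7.69 TPM) had higher means than the 3 mitochondrial carriers among the 9 genes, though Mpc1, at 38.26 TPM, was below Slc25a10 in replicate 3. The oxoadipate carrier Slc25a21 was lowest, at 0.00333 TPM on average.

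The remaining route of itaconate breakdown was expressed above Clybl. Of the 4 genes listed for it, all reached 1 TPM and 0 passed 2-fold. The succinyl-CoA ligase subunits Suclg1 (14.8 ± 1.28 TPM) and Sucla2 (11.4 ± 0.839 TPM), which belong to the enzyme that can form itaconyl-CoA, and the hydratase gene Auh (6.85 ± 0.429 TPM) all exceeded Clybl, as did the lowest, Suclg2 (3.31 ± 0.165 TPM).

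Slc13a3 was the single abundant member of its family in these cells. Slc13a1 and Slc13a4 had 0 counts in every library, where a count of 0 allows up to 3, and the citrate transporter gene Slc13a5 had 0, 1 and 0 counts. Slc13a3 had 19.54, 8.86 and 36.56 TPM, against 0.17, 0.13 and 0.11 TPM for Slc13a2. Abcg2, an efflux transporter reported to export itaconate, was the 1 gene of this list of 5 at 1 TPM, with 1.84, 1.36 and 1.20 TPM.

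Genes that use cytosolic acetyl-CoA and NADPH had 7 of 11 at 1 TPM and 1 past 2-fold. The desaturase gene Scd2 was highest (70.3 ± 14.9 TPM), the sterol synthesis gene Hmgcs1 had 25.4 ± 0.900 TPM, and the lowest was the acetyl-CoA carboxylase gene Acacb (0.25 ± 0.11 TPM). The gene past 2-fold was Scd1, singled out after its values were seen, with 1.24, 2.98 and 0.78 TPM and a ratio of 4.37. It was highest in replicate 2, the library in which Acod1 and Slc13a3 were lowest, and without replicate 2 the count was 0 of 11, against 4.77% of all kept genes.

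Each of the 9 genes was annotated with 1 to 7 transcripts, 41 in all. By the gene and transcript tables used so far (the first tables), 8 of the genes were read almost wholly as 1 transcript. The second transcript tables gave a lower share for Slc13a3, described below. The share of the leading transcript among those 8 was at least 96.4% on average, the lowest being the leading Slc13a3 transcript, with 96.84%, 94.39% and 97.90%. Acly was the exception, with Acly-203 at 46.74%, 54.73% and 44.97% of its abundance and Acly-207 at 41.51%, 43.12% and 54.64%. Both are protein-coding. In these first tables Acly-203 led in replicates 1 and 2 and Acly-207 in replicate 3, so neither led in every library.

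The Acly transcripts differ in part by a short coding exon. It is printed here with the Slc13a3 exon described after it, because each is a coding difference between transcripts. Both are given in lower case and 5′ to 3′ along the transcript (GENCODE M21).

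Acly exon 14 of Acly-203: attcagtcccaagtccaagatccctgcaag
Slc13a3 exon 6: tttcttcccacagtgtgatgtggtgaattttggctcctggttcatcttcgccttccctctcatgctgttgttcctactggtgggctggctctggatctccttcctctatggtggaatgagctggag

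The Acly exon is exon 14 of 29, 30 bases long, at chr11:100503160-100503189 (minus strand, mm10), and Acly-203 carries it and Acly-207 lacks it. The coding length is 3303 bases with it and 3273 bases without it. Acly-203 has 29 exons and 4426 bases and Acly-207 has 27 exons and 4162 bases, so they also differ outside this exon. Acly-203 held 48.0%, 55.0% and 45.1% of the summed abundance of Acly-203, Acly-207 and Acly-201 (49.4 ± 5.05%, SD, n = 3). From the second transcript tables, made by another program, the share was 48.2%, 55.8% and 50.0% (51.3 ± 4.0%). The shorter coding transcript Acly-202, of 15 exons, also carries the exon and held 0.297 ± 0.514% of the gene's abundance in the first tables and 11.1 ± 3.93% in the second. With it counted, transcripts carrying the exon held 48.5%, 55.0% and 45.1% (49.5 ± 4.99%) in the first tables and 52.4%, 60.2% and 57.8% (56.8 ± 4.02%) in the second, higher in the second in 3 of 3 libraries. By estimated abundance, transcripts with the exon thus held about as much as those without it in the first tables. In the second they held somewhat more. These shares are of whole transcripts, and reads over the exon itself were not counted. The split of the transcripts without the exon also differed between programs, since Acly-207 held 46.4 ± 7.16% in the first tables and 28.0 ± 12.7% in the second, and Acly-201 held 3.61 ± 4.84% and 14.6 ± 12.7%.

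**Figure D4:**
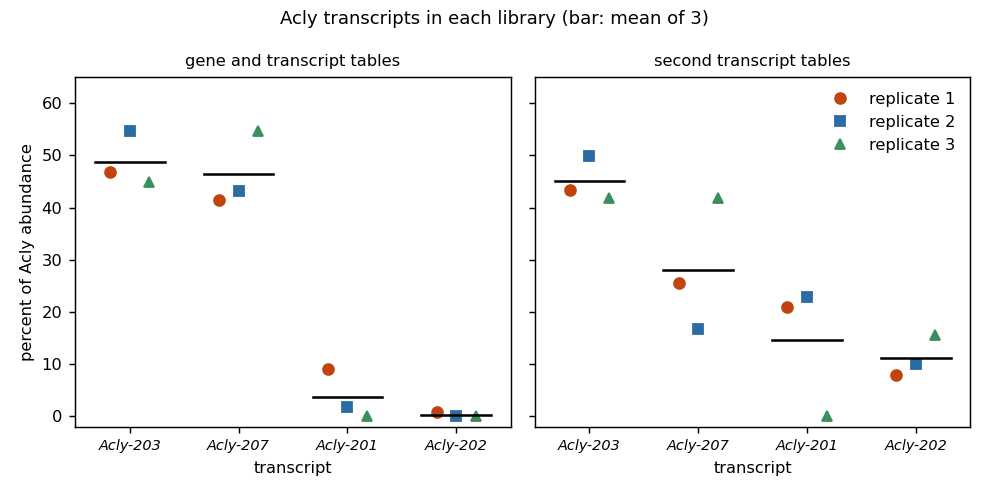
Percent of Acly abundance held by Acly-203, Acly-207, Acly-201 and Acly-202 in each library, with a bar at the mean, from the first tables (left) and the second transcript tables (right). Acly-203 averages 48.8% and 45.0% in the 2 panels, Acly-207 averages 46.4% and 28.0%, and Acly-202 averages 0.297% and 11.1%.

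For Slc13a3 the exon at issue is exon 6 of 13, 126 bases long, at chr2:165430208-165430333 (minus strand, mm10). The leading transcript carries it, the other protein-coding transcript lacks it, and the coding length is 1800 bases with it and 1674 bases without it. The whole transcripts are 3524 and 3131 bases long, so they also differ outside this exon. The transcript without it held 2.41%, 5.61% and 1.68% of the gene's abundance in the first tables and 21.2%, 26.5% and 23.9% in the second. The 2 programs did not overlap, so the share of this transcript depends on the program, and the reason was not tested. The transcript with it led in both, at 96.4 ± 1.80% and 74.4 ± 0.756%.

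The second tables gave TPM about 2.00 times lower over 10314 genes, and the 9 genes followed that shift, as in Acod1 with 482.07, 181.85 and 197.91 TPM in the first tables against 234, 99.8 and 86.8 TPM in the second. None of the 9 differed at least 2-fold in every library, against 9.71% of the 10314 genes, but that count is set by the common shift, which lies at the threshold. With TPM rescaled over coding genes alone, 0 of the 9 and 5.08% of genes differed so, and the 9 ratios lay between 0.927 (Acly, replicate 3) and 1.09 (Clybl and Cs, replicate 1). Clybl averaged 0.764 ± 0.146 TPM in the second tables and was then the 1 gene of the 9 not at 1 TPM.

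Some annotated genes overlap the 9, and the strand setting of the counting is not given in the sources used here. Slc25a11 shares 245 bases with Rnf167 on the opposite strand, which had 6.26, 6.40 and 6.10 TPM, so reads from that stretch cannot be assigned with certainty. Antisense genes lie across Slc13a3 (Gm14437, 8222 bases) and Slc25a10 (Gm11788, 555 bases) and had at most 0.19 TPM. The genes overlapping Clybl, Acly and Cs had 0 TPM in every library. Leaving overlapping genes aside, the nearest protein-coding gene was taken on either side of each of the 9. Of these 18 neighbours, 10 reached 1 TPM in every library, against 41.3% of protein-coding genes. The ratio between libraries was available for those 10 only, and 1 passed 2-fold, against 9.46% of kept genes. That neighbour was Kctd12, 64339 bases from Acod1, with 46.32, 31.23 and 65.71 TPM, so it was highest in replicate 3 and did not share the pattern of Acod1. The closest of the 18 was Pikfyve, 182 bases from Idh1, and Idh1 had 28.45, 34.38 and 31.38 TPM, against 19.84, 14.74 and 17.71 TPM for Pikfyve.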

How the data were processed

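Gene and transcript tables with the column layout of RSEM, and second transcript tables with the column layout of kallisto, were deposited per library. The build is mm10 and the annotation GENCODE M21, per the text deposited with the tables; which programs, versions and strand setting were used is not given in the sources used here. Expected counts and TPM per gene and the percent of gene abundance per transcript were deposited by the authors, and the second tables hold estimated counts and TPM, as deposited. Gene symbols came from those tables, and TPM of the second tables was summed per gene here. TMM library sizes were computed from expected counts rounded to whole numbers (edgeR 4.0.16, R 4.3.3) over the 12372 genes kept by filterByExpr, and the expected counts were divided by them. DESeq2 1.42.0 size factors were an alternative, and no p-value was computed. Contrasts used log2(TPM + 1). Other steps used Python 3.11.15, numpy 2.4.6, pandas 2.3.3, scipy 1.17.1 and matplotlib 3.10.9. The scaling was tested on simulated counts with known folds. The 95% intervals and the limit of 3 counts cover counting error only. The genes named were all 9, the 3 highest and the lowest of each companion list by mean TPM, the 5 closest to Acod1, transcripts at a mean of 10% or more, and overlapping or neighbouring genes; 2 of the genes this rule takes are not reported here. The members and lists were chosen with earlier results of these data known. Promoters come from RefSeq (GRCm38.p6), and exon sequences from GENCODE M21. Coordinates are 1-based.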

Additional observations from a re-analysis of the deposited data

How the results depend on the processing

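Synthesis minus transport, minus citrate enzymes and minus degradation kept their sign and moved by less than 1 SD with a pseudocount of 0.1, the second quantification, TPM over coding genes, mean log2 values and each library left out. Citrate enzymes minus transport changed sign without replicate 2 (-0.10) and was positive without either other library, at up to 0.19. The 9 genes past 1 TPM became 8 with the second quantification and with a threshold of 2 TPM. The 2 genes past 2-fold between libraries became 1 to 2 when a library was left out, and were 2 with DESeq2 size factors, TPM as deposited, the second quantification and no filter. The 0 genes that differed 2-fold between programs became 9 at 1.5-fold, and 0 to 8 when a library was left out, beside a median of 2.00-fold between programs over 10314 genes. Of the 5 genes closest to Acod1, 2 were kept with a mean of at least 1 TPM, where 9861 genes compete. Counts of 84 to 137 limit Clybl. The coding-gene and library-by-library list counts, the search around Slc13a3 and the count with Acly-202 were added after seeing the data. No paired analysis was possible because there is 1 group.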
